A study of Mus musculus with 778 samples.

Results

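The step from GO2 to GO3 is the middle of mouse oocyte growth, when the oocyte widens from 50 to 55 μm (GO2) to 60 to 65 μm (GO3). The cells were chosen by the stage written in their name in the deposited table of single-cell RNA-seq counts, which gave 26 GO2 and 44 GO3 cells, 70 of 223 cells in all. Both stages came from ovaries of wild type female ICR mice 3 to 4 weeks old, so mouse age does not separate them and oocyte diameter does. Ovaries were digested with enzymes and single oocytes were picked by hand and washed free of follicle cells. The cells were sequenced in 4 libraries, and the names of the cells do not say which library held which cell. Stage and library therefore cannot be told apart, each stage was taken as 1 pooled sample, and no p-value was computed between them. Spreads given below are between single oocytes.

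During growth the oocyte is arrested in prophase of the first meiosis and fills its cytoplasm with mRNA, much of it stored in a silent form for the egg and the early embryo. It also builds the zona pellucida, the glycoprotein coat around it, exchanges metabolites with granulosa cells through gap junctions, and receives most of its DNA methylation from Dnmt3a and its cofactor Dnmt3l. Towards the end of growth transcription falls silent, so the GO2 to GO3 step lies within the time in which the store of transcripts is still being made.

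The unit of measurement was the UMI, a random tag that lets each captured mRNA molecule be counted once. GO2 cells held 95108 to 2468893 UMIs (median 676786) and GO3 cells 232640 to 3549949 (median 972294). Depth was uneven, since the 10 deepest cells held 73.2% of all GO2 UMIs and 46.7% of all GO3 UMIs. Of the GO2 cells 14 had at least 500000 UMIs and 12 had fewer, against 34 and 10 of the GO3 cells. Every cell was scaled to a total of 1000000, giving CPM, which is a share of the RNA of that cell and does not show whether a larger oocyte held more RNA.

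The defining genes of the oocyte were present in both stages. All 13 oocyte markers reached 10 CPM, and 1 of them, *Ddx4*, was called by the rule given below. Their median log2 ratio was 0.33 over all cells, 0.13 among cells with at least 500000 UMIs and 0.49 among those with fewer. Together they made up 20068 ± 3141 CPM in GO2 (mean ± SD, n = 26 cells) and 22515 ± 2276 CPM in GO3 (n = 44 cells). The same 5 genes were the most abundant in both stages, namely *Ldhb* (lactate dehydrogenase B), *H1foo* (the linker histone of the oocyte), *Pttg1* (securin), *Ubb* (ubiquitin B) and *Spin1* (a reader of histone methylation), and none of them differed 2-fold. *H1foo* averaged 14104 ± 2961 CPM in GO2 and 11917 ± 1740 CPM in GO3. *Ldhb* averaged 11433 ± 2629 CPM and 10988 ± 1545 CPM.

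Markers of other ovarian cells were low, with exceptions in single genes. The 16 granulosa cell markers summed to 422 ± 137.9 CPM in GO2 and 407 ± 102.5 CPM in GO3, with 3 of them reaching 10 CPM and none called, and *Serpine2*, a secreted protease inhibitor, made up 385 and 370 CPM of it. *Amh*, *Foxl2* and *Gatm*, picked from the list after their values were seen, had 0, 5 and 0 UMIs in all GO2 cells together and 1, 7 and 0 UMIs in all GO3 cells. *Cyp19a1*, the aromatase of granulosa cells, stood at 13.6 ± 7.79 CPM in GO2 and 6.52 ± 4.63 CPM in GO3, and *Fshr*, the receptor for follicle-stimulating hormone, at 1.49 and 5.05 CPM. The 12 theca and stroma markers summed to 4.73 ± 3.65 and 7.69 ± 5.45 CPM, led by *Acta2*, none reaching 10 CPM, with *Col1a1* at 2 UMIs in each stage. The 14 blood and endothelial markers summed to 63.1 ± 29.3 and 60.0 ± 25 CPM, with 2 of them reaching 10 CPM and none called. The sum was led by *Pecam1*, at 35.2 CPM in GO2 and 41.5 CPM in GO3. With GO2 cells 24 and 25 left out, *C1qb* averaged 27.4 ± 15.2 CPM in GO2, and its GO3 mean was 0.617 of that. No UMI was seen in either stage for 7 of the 14. *Ptprc*, carried by all white blood cells, had 0 UMIs in GO2 and 2 in GO3. The part of RNA from other cells in the differences below was not tested.

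A gene was called when 2 averages both differed at least 2-fold in the same direction and both reached 10 CPM in the stage with more. The first was the CPM averaged cell by cell, and the second the CPM after pooling all UMIs of a stage. By this rule 293 of the 7202 genes that reached 10 CPM passed (4.07%), of which 230 were higher in GO3 (3.19%) and 63 higher in GO2 (0.875%). The higher genes were thus 78.5% of the calls on the CPM scale. This split depended on the scaling, since 174 genes were higher in GO3 and 85 higher in GO2 with DESeq2 size factors (67.2% higher), and 176 and 83 with TMM factors (68%). The median gene tested was itself 0.12 higher in GO3 on the log2 scale of CPM, against 0.02 with DESeq2 size factors and 0.03 with TMM factors, so each difference is best read against that shift. Of the calls, 186 of the 230 and 49 of the 63 held whichever single cell was left out.

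**Figure D1:**
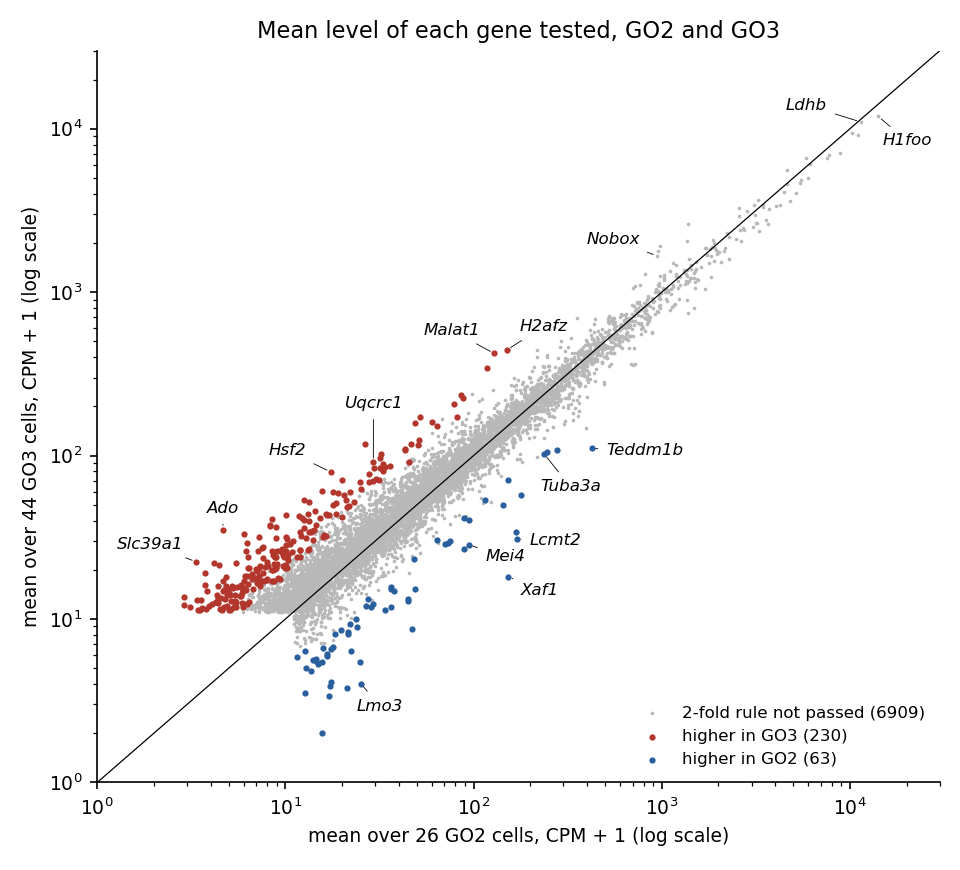
Mean level of each of the 7202 genes tested over 26 GO2 cells (x axis, CPM + 1, log scale) and 44 GO3 cells (y axis, CPM + 1, log scale), with 230 genes called higher in GO3 in red and 63 called higher in GO2 in blue. Most genes lie along the line of equal level, and the calls fan out from it at low and middle levels while the most abundant genes, such as *H1foo* and *Ldhb*, stay on it.

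None of the 7202 genes separated the stages completely, as the ranges over GO2 and GO3 cells overlapped for every gene tested. For the genes higher in GO3, the GO3 cell had the higher value in a median of 89.3% of all pairs of a GO2 with a GO3 cell, and for the genes higher in GO2 in 17.1% of pairs, beside 56.3% for all genes tested. These percentages describe the genes the rule picked and are no test. As a description of the cells that chose the genes, among those with at least 500000 UMIs all 230 and all 63 kept their direction, and among cells with fewer UMIs 228 of the 230 and all 63 did.

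Distances between cells of different stages were little larger than distances between cells of the same stage. All of these distances hold the counting error of thinned cells, which was not measured apart from differences between oocytes. With every cell thinned to 90000 UMIs, the median distance between cells (root mean square difference of log2(CPM + 10) over the 7202 genes) was 1.07 within GO2, 1.02 within GO3 and 1.09 between the stages. A GO3 cell was on average nearer to other GO3 cells in 43 of 44 cases, and a GO2 cell nearer to other GO2 cells in 21 of 26. The latter count was 17 of 26 over genes of at least 50 CPM and 19 of 26 with a pseudocount of 1 CPM. Among cells with at least 500000 UMIs the distances were 0.992 within GO2, 0.996 within GO3 and 1.05 between the stages. Among the GO2 cells 2 stood apart, GO2 cell 24 with 98004 UMIs and GO2 cell 25 with 214486 UMIs, whose median correlation with the other GO2 cells was 0.63 and 0.65 at equal depth, where the remaining GO2 cells had 0.74 to 0.84 and GO3 cells 0.78 to 0.83 with their own stage. Thinned to equal depth, these cells showed 4883 and 5274 genes, where the median was 7356 in GO2 and 7779 in GO3. Without them 290 genes were called, 225 higher in GO3 and 65 higher in GO2, of which 279 were among the 293. Among the genes described below, the call of *Cdh3* was lost.

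The genes with the largest differences are shown first with the sequence around their start. For each, 250 bases before and 50 bases after the 5′ end of the gene record were read from the mouse genome build NCBIM37 (mm9), so that each window covers the promoter and the first transcribed bases. *Ado* encodes cysteamine dioxygenase and *Slc39a1* a zinc importer, and both were higher in GO3. *Xaf1*, a gene induced by interferon whose product binds the apoptosis inhibitor Xiap, and *Lmo3*, a LIM domain cofactor of transcription, were higher in GO2. Capitals mark each CG pair, the pair of letters at which mammalian DNA is methylated.
Ado promoter, chr10:67011654-67011953, minus strand: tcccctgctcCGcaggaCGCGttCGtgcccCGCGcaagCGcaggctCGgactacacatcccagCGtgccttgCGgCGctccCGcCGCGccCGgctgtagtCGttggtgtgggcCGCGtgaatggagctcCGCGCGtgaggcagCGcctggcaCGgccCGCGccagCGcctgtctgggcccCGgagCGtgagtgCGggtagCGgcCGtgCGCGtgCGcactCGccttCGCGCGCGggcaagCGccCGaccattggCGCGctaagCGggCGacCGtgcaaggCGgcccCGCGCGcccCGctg
Slc39a1 promoter, chr3:90051844-90052143, plus strand: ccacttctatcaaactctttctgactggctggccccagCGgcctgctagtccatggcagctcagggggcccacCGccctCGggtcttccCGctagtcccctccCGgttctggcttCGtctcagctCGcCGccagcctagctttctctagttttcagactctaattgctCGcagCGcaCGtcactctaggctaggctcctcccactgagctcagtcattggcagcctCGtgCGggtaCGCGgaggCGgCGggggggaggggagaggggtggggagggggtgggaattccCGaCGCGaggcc
Xaf1 promoter, chr11:72114881-72115180, plus strand: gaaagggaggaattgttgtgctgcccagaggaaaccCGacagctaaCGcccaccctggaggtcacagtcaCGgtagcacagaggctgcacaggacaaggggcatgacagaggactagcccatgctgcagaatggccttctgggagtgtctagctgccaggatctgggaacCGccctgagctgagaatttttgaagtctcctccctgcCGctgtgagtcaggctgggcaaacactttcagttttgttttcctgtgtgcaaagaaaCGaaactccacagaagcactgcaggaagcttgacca
Lmo3 promoter, chr6:138530440-138530739, minus strand: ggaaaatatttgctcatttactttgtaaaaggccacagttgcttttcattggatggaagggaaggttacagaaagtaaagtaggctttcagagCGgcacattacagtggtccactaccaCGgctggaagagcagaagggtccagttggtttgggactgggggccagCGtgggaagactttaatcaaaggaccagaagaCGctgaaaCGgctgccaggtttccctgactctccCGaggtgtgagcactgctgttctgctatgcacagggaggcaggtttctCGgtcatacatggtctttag
The windows of *Ado* and *Slc39a1* held 51 and 20 CG pairs, and those of *Xaf1* and *Lmo3* held 6 and 7.

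The contrast in CG content extended to the called genes as groups. Windows were found for 226 of the 230 genes higher in GO3, 59 of the 63 higher in GO2 and 7035 of all 7202. The median window held 20 CG pairs in the genes higher in GO3 and 20 in all genes tested, but 9 in the genes higher in GO2. More than 10 CG pairs were found in 79.6%, 79% and 42.4% of windows respectively. Median GC content was 60.3% for the genes higher in GO3, 59.7% for all genes tested and 52% for the genes higher in GO2. The genes higher in GO2 were also longer, with a median span of 34.8 kb from start to end of the record, against 19.9 kb for the genes higher in GO3 and 24.3 kb for all genes tested. These are descriptions of 59 and 226 genes. The CG pair was counted as the letters CG, which read the same on both strands, and the count says nothing about methylation in these cells.

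**Figure D2:**
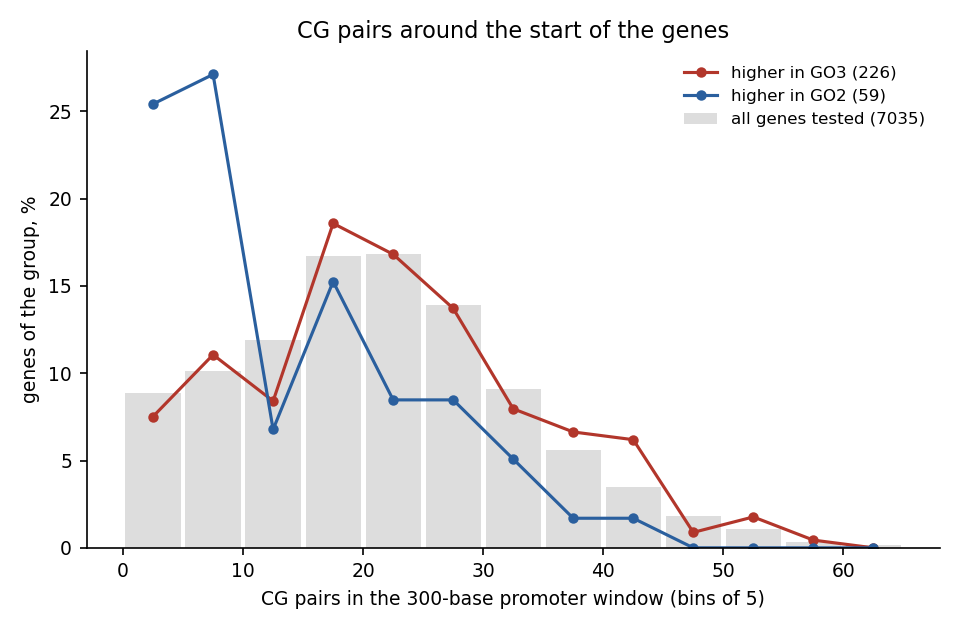
Share of genes (y axis, % of the group) by the number of CG pairs in the 300-base promoter window (x axis, bins of 5) for all 7035 genes tested that had a window (grey bars), the 226 higher in GO3 (red) and the 59 higher in GO2 (blue). The red line follows the grey bars, with a median of 20 in both, while the blue line is highest below 10 pairs and has a median of 9.

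*Ado* ranked first among the genes higher in GO3 whose call no single cell decided. Over GO2 cells it ranged from 0 to 13.7 CPM with a median of 3.20, and over GO3 cells from 2.62 to 191 CPM with a median of 23.9. No GO2 cell reached the GO3 median, and 43 of 44 GO3 cells exceeded the GO2 median. The means were 3.67 ± 3.75 and 34.3 ± 34.9 CPM, a ratio of 9.34. Summed UMIs gave 4.80 CPM (95% exact Poisson interval 3.98 to 5.74) and 28.2 CPM (26.7 to 29.7), a ratio of 5.87 (95% interval 4.87 to 7.13). Such intervals cover counting error alone and leave out all differences among oocytes and libraries. The ratio of means was 5.44 among cells with at least 500000 UMIs and 31.8 among those with fewer, where the GO2 mean was only 1.55 CPM.

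*Slc39a1* had a median of 0.587 CPM in GO2 (0 to 10.9) and 17.1 CPM in GO3 (5.47 to 89.2). It was detected in 15 of 26 GO2 cells and in all 44 GO3 cells. All GO3 cells exceeded the GO2 median and no GO2 cell reached the GO3 median. Its mean was 9.11 times as high in GO3, its summed CPM 4.51 times (3.62 to 5.68).

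Regulators of transcription were among the 12 genes most raised in GO3. *Hsf2*, a heat shock transcription factor active in germ cells, ranged from 0 to 63.6 CPM in GO2 (median 13.7) and from 26.1 to 208 CPM in GO3 (median 67.7). Its mean was 4.77 times as high in GO3 and its summed CPM 3.65 times (3.30 to 4.05), and the ranges overlapped between 26.1 and 63.6 CPM. *Snai1*, a repressor of the zinc finger type, was seen in 11 of 26 GO2 cells (0 to 11 CPM, median 0) and 43 of 44 GO3 cells (0 to 31.3 CPM, median 10.9). *Zfp367*, another zinc finger gene, had a median of 0.933 CPM in GO2 (0 to 22.7) and 14 CPM in GO3 (1.66 to 93.5), with a ratio of sums of 6.42 (4.92 to 8.51). *Zbtb49* had means of 7.5 ± 6.80 and 40.1 ± 19 CPM.

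The others had products of varied kinds. *Selenos*, a selenoprotein of the endoplasmic reticulum, had means of 5.28 and 28 CPM. For *Deup1*, which takes part in making centrioles in multiciliated cells, they were 5.05 and 31.9 CPM, and for *G2e3*, a ubiquitin ligase of the cell cycle, 2.76 and 18.1 CPM. The remaining genes were *Gm16894*, *Cramp1l* and *Uchl4*, with ratios of means of 5.96, 5.03 and 4.97. With 1 CPM added, their log2 ratios were 2.27, 2.18 and 2.17 by means and 1.97, 1.65 and 1.61 by sums. *Uchl4* is close in sequence to *Uchl3*, so its counts may hold reads of that gene. All 12 had a GO3 cell above a GO2 cell in at least 91.3% of pairs.

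The genes higher in GO2 were the smaller group. *Xaf1* ranged from 4.93 to 584 CPM in GO2 with a median of 69.8, and from 0 to 245 CPM in GO3 with a median of 7.18. High and low GO2 cells lay far apart, and 23 of 26 exceeded the GO3 median while 2 of 44 GO3 cells exceeded the GO2 median. Its mean was 152.2 ± 170 CPM in GO2 and 17.1 ± 38.9 CPM in GO3, 8.88 times as high in GO2. Depth moved with its level, since GO2 cells with fewer than 500000 UMIs averaged 221 CPM and deeper GO2 cells 93.5 CPM, where GO3 averaged 45.5 and 8.79 CPM. The part of depth in its level was not tested, and the difference between stages was present in both depth classes.

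*Lmo3* was more even, with 0 to 65.1 CPM in GO2 (median 20.4) and 0 to 19.7 CPM in GO3 (median 1.36). All but 1 of the GO2 cells exceeded the GO3 median and no GO3 cell reached the GO2 median. The means, 24.2 ± 16.3 and 3.03 ± 4.46 CPM, differed 7.97-fold, and the sums 7.02-fold (5.87 to 8.43). *Tmem171*, which encodes a membrane protein, went from a median of 39.4 CPM (0 to 121.2) to 7.77 CPM (0 to 29.4). *Tfap2b*, an AP-2 transcription factor, went from 22.4 CPM (4.30 to 81.6) to 1.74 CPM (0 to 20.2), and all 26 GO2 cells exceeded its GO3 median.

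*Cntn6*, a contactin, was 6.77 times as high in GO2 by means, *Csmd3* 5.30 times and *Epha3*, an ephrin receptor, 4.01 times. *Tex11*, a protein of meiotic recombination, had means of 44 ± 33.4 CPM in GO2 and 11.8 ± 8.29 CPM in GO3. *Cyp2c69*, a cytochrome P450 gene of a family with near-identical members, had 16.2 and 2.89 CPM. *Lcmt2* had 169 ± 168 and 29.9 ± 24.6 CPM, *Brip1os* 166 ± 126.5 and 33.2 ± 31 CPM, and *Teddm1b* 423 ± 523 and 110 ± 80.3 CPM. *Brip1os* is antisense to *Brip1*, and reads of the pair can be separated only where counting used the strand, which the sources used here do not state. *Teddm1b* has related copies beside it and rested partly on the GO2 cells that stood apart, its ratio of GO2 to GO3 means being 3.86 with them and 2.80 without them.

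**Figure D3:**
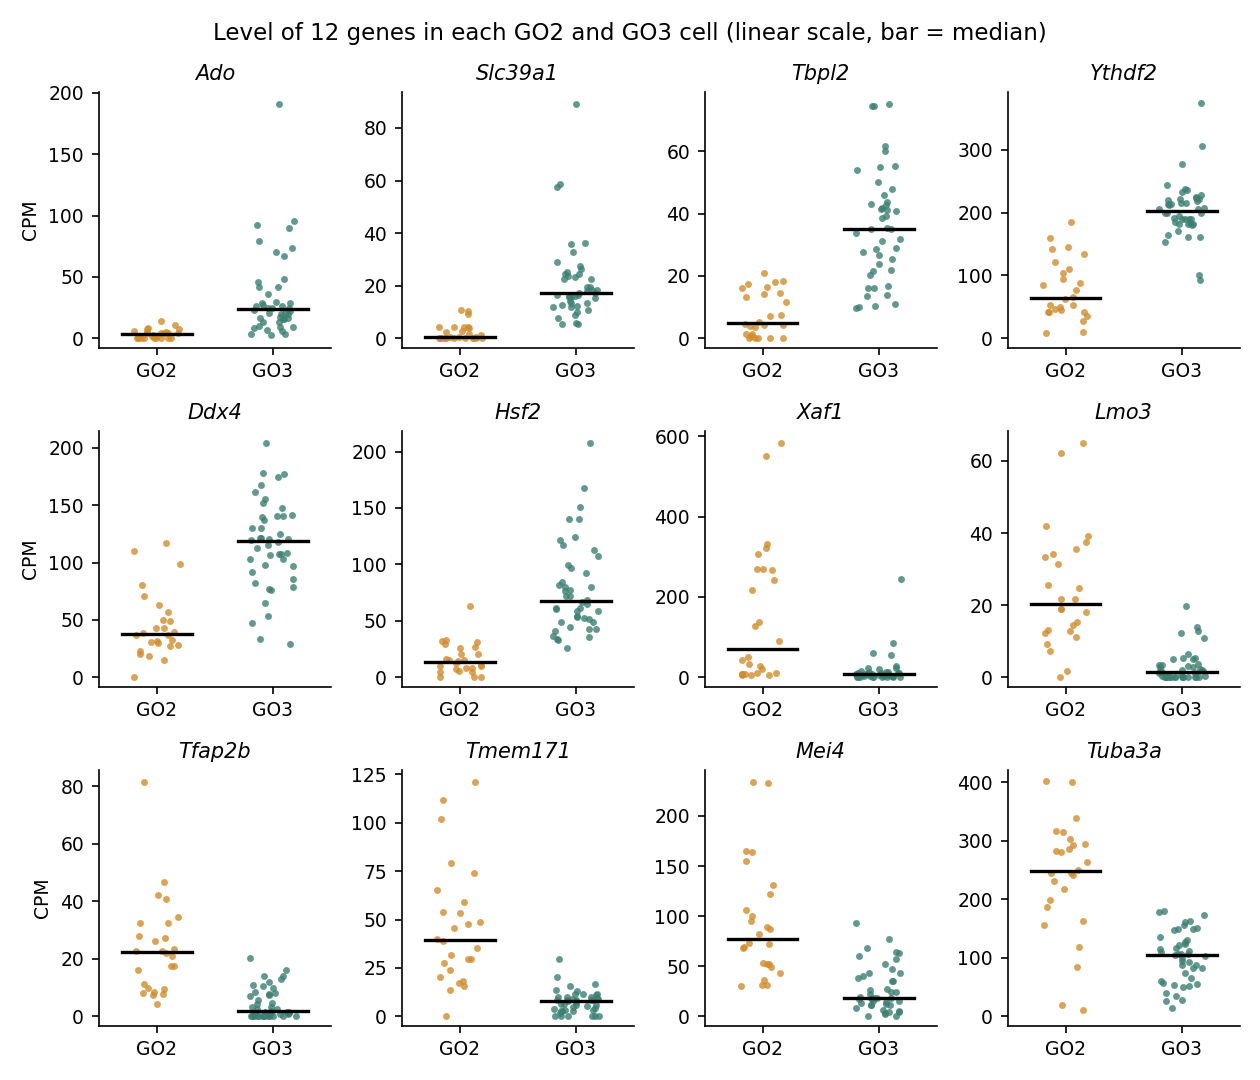
Level of 12 genes in each of 26 GO2 cells (orange) and 44 GO3 cells (green), in CPM on a linear axis, with a bar at the median. *Ado*, *Slc39a1*, *Tbpl2*, *Ythdf2*, *Ddx4* and *Hsf2* lie higher in GO3 and the other 6 higher in GO2, and in every panel some cells of the stages overlap, with *Xaf1* spread from 4.93 to 584 CPM over GO2 cells.

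To see which functions moved, 36 gene lists covering oocyte biology, housekeeping complexes and other ovarian cells were counted. Of their 847 members tested, 30 were called (3.54%), 27 higher in GO3 and 3 higher in GO2, close to the 4.07% of all genes tested. Calls were thus spread thinly, mostly as 1 to 3 members of a list. The counts by list below stand beside 3.19% of all genes tested higher in GO3 and 0.875% higher in GO2. In a short list 1 call alone exceeds these shares, so nothing is read from such a count.

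RNA-binding proteins that store or silence maternal mRNA had 3 of 19 members tested higher in GO3 (15.8%, beside 3.19% of all genes tested). None was higher in GO2, and the median log2 ratio was 0.22 beside 0.12 for all genes. That median was 0.03 among cells with at least 500000 UMIs and 0.43 among those with fewer, beside 0.05 and 0.21 for all genes. *Ddx6*, a helicase of cytoplasmic mRNA granules, averaged 23.8 ± 15.2 CPM in GO2 and 68.3 ± 25.6 CPM in GO3. *Ddx4*, the germ cell helicase Vasa, ranged from 0 to 116.7 CPM in GO2 (median 37.8) and from 28.9 to 204 CPM in GO3 (median 118.7), 2.53 times as high by means and 2.22 times by sums (2.10 to 2.35). *Zar1*, *Pabpn1l*, *Eif4e* and *Cpeb1*, the most abundant members, had ratios of 1.08, 0.98, 0.91 and 1.16.

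Among the deadenylation and decay genes 1 of 18 was called. *Ythdf2*, which binds m6A-marked mRNA and is needed for maternal transcript turnover, had 9.12 to 185 CPM in GO2 (median 63.9) and 92 to 374 CPM in GO3 (median 202). All 44 GO3 cells exceeded the GO2 median, no GO2 cell reached the GO3 median, and the ratio was 2.62 by means and 2.25 by sums (2.14 to 2.35). *Btg4*, the adaptor that brings the deadenylase to mRNA at maturation, averaged 1510 ± 382 and 1151 ± 218 CPM, and *Cnot7*, a deadenylase subunit, 490 ± 162 and 281 ± 107.2 CPM, which did not reach 2-fold.

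Transcription factors of the oocyte had 1 call among 13 members tested. *Tbpl2*, the TBP relative that replaces TBP at oocyte promoters, ranged from 0 to 21 CPM in GO2 (median 4.90) and from 9.81 to 75.2 CPM in GO3 (median 35.2). The ratio was 4.54 by means and 3.81 by sums (3.31 to 4.39), and every GO3 cell exceeded the GO2 median. *Nobox*, which drives early follicle genes, averaged 944 ± 450 and 1663 ± 375 CPM, 1.76-fold by means and below the 2-fold limit. The homeobox genes *Obox2* and *Obox5* lay the other way, at 0.63 and 0.64 of their GO2 means, also short of the limit, and their family has near-identical members.

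The DNA methylation machinery had no call among 9 members tested. *Dnmt3a* averaged 162 ± 52.6 CPM in GO2 and 188 ± 55.8 CPM in GO3, and its cofactor *Dnmt3l* 142.6 ± 60.6 and 95.9 ± 40.8 CPM. The demethylating enzyme *Tet3* had 242 ± 85.8 and 244 ± 79.7 CPM. *Dnmt1*, the maintenance enzyme, had 735 ± 276 and 864 ± 231 CPM, and *Dppa3*, which protects maternal methylation, 5469 ± 1082 and 4848 ± 918 CPM. All of these lay within 1.5-fold by both averages except *Dnmt3l*, whose summed CPM was 0.625 of that in GO2.

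Genes of histone marks tied to de novo methylation had 2 of 14 called, both higher in GO3 (14.3%, beside 3.19% of all genes tested). *Kdm1b*, the H3K4 demethylase needed for methylation of maternal imprints, averaged 44.7 ± 23.9 CPM in GO2 and 91 ± 26.6 CPM in GO3, a ratio of 2.04. *Setdb2*, of the SET domain family, averaged 31.9 ± 14.9 and 79.1 ± 26.4 CPM. Both calls sat near the limit by sums, at 2.06 each, and each was lost when some single cell was left out. With DESeq2 size factors or TMM factors neither gene kept its call. *Kmt2d*, *Nsd1*, *Kmt2c* and *Ehmt1* had ratios of 1.0, 0.87, 1.18 and 1.14.

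Of 19 genes of histone variants and their chaperones 1 was called, and of 13 remodelling ATPases 1. *H2afz*, the replacement histone H2A.Z, ranged from 51 to 299.8 CPM in GO2 (median 136.7) and from 204 to 1005 CPM in GO3 (median 388), so the stages overlapped only between 204 and 299.8 CPM. Its ratio was 2.96 by means and 2.45 by sums (2.37 to 2.54), and its processed copies elsewhere in the genome could take some of its reads. *Chd9*, a remodelling ATPase, averaged 86.5 ± 37.9 and 225 ± 90 CPM. The 18 Polycomb genes tested had no call, with *Ezh2* at 543 ± 238 and 446 ± 183 CPM and *Eed* at 368 ± 89.6 and 270 ± 49 CPM.

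The zona pellucida, secreted growth factor, subcortical maternal complex and oocyte *Nlrp* lists had no call among 3, 4, 8 and 8 members tested. *Zp3* averaged 4604 ± 1627 and 5565 ± 934 CPM, and *Gdf9*, a signal from oocyte to granulosa cells, 4641 ± 1579 and 4603 ± 1307 CPM. *Nlrp5* (Mater), of the complex beneath the oocyte cortex, averaged 952 ± 430 and 1794 ± 509 CPM, 1.89-fold by means and 1.82-fold by sums, just below the limit. *Cd9*, needed for fusion with sperm and named after its values were seen, had 265 ± 123.5 and 613 ± 140 CPM, 2.31-fold by means but 1.87-fold by sums, and was not called. *Dppa5a* and *Pigp*, named after their values were seen as also short of the limit, had ratios of means of 1.90 and 1.98.

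Calls among meiotic genes were few and lay in both directions. They were 1 of 22 members tested of arrest and resumption (4.55%) and 1 of 13 of cohesin and recombination (7.69%), beside 4.07% of all genes tested. Among 22 genes of arrest and resumption *Wee1*, a kinase that inhibits Cdk1, was called, with 8.61 ± 7.5 CPM in GO2 and 25.1 ± 9.33 CPM in GO3, while *Ccnb1*, *Mos* and *Plk1* had ratios of 0.91, 1.06 and 1.01. Among 13 cohesin and recombination genes *Mei4*, needed to form meiotic DNA breaks, was called higher in GO2, with 30.7 to 234 CPM in GO2 (median 77.6) and 0 to 93.5 CPM in GO3 (median 18.5). All 26 GO2 cells exceeded the GO3 median of *Mei4*, and the ratio was 3.40 by means and 2.6 by sums (2.43 to 2.79). *Ccdc36* (Iho1), whose product works with Mei4, was named after its values were seen, and stood at 87.9 ± 63.9 and 25.7 ± 18.7 CPM. *Syce2*, *Sgo2a* and *Smc1b* had ratios of 1.0, 0.99 and 1.05. The 25 spindle and checkpoint genes had no call.

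Of the cytoskeletal genes 1 of 15 was called, *Tuba3a*, an alpha tubulin gene whose copy *Tuba3b* is nearly identical, so that the counts of the pair are uncertain. It had 10.2 to 401 CPM in GO2 (median 247) and 14 to 180 CPM in GO3 (median 104.9), 2.33 times as high in GO2 by means and 2.31 times by sums (2.22 to 2.39). *Actb* had 164 ± 84.6 and 267 ± 194 CPM. Junction and adhesion genes had 1 call of 9, the cadherin *Cdh3* (6.05 and 15.6 CPM), which was lost without GO2 cells 24 and 25, and *Gja4*, the gap junction protein on the oocyte side, had 440 ± 226 and 445 ± 117.4 CPM.

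Large housekeeping complexes had few calls. Cytoplasmic ribosomal protein genes had 1 call of 77 tested (*Rpl9*, 20.7 and 48.1 CPM, a gene with many pseudogenes), respiratory chain genes 1 of 74, mitochondrial ribosomal protein genes 0 of 75 and proteasome genes 0 of 41. Their median log2 ratios were 0.15, 0.15, 0.14 and 0.02, beside 0.12 for all genes, and that of the proteasome genes had the other sign in 7 of 10 settings. The respiratory call was *Uqcrc1*, a core subunit of complex III, with 28.3 ± 21.1 CPM in GO2 and 89.8 ± 37.3 CPM in GO3.

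Zinc finger genes named Zfp had the highest count of calls, 9 members higher in GO3 (7.2% of those tested, beside 3.19% of all genes) and 1 higher in GO2 (0.80%, beside 0.875%). Their median log2 ratio was 0.31, or 0.19 among cells with at least 500000 UMIs and 0.44 among those with fewer. The 9 were *Zfp367*, *Zfp707*, *Zfp622*, *Zfp111*, *Zfp281*, *Zfp689*, *Zfp473*, *Zfp709* and *Zfp970*, with ratios of means from 6.58 down to 2.19. *Zfp707* was the most abundant of them, at 18.9 ± 16.5 and 70.3 ± 29.5 CPM. Some of the 9 fell short of 2-fold in other settings. The log2 ratio of mean CPM + 1 of *Zfp281* was 0.70 among cells with at least 500000 UMIs and 2.86 among those with fewer. That of *Zfp970* was 0.95 with DESeq2 size factors and 0.96 with TMM factors. *Zfp935*, the member higher in GO2, rested on few cells, with a maximum of 135.7 CPM against a median of 3.29 CPM in GO2, and only 56.6% of pairs had the higher value in the GO2 cell. *Zfp970* and *Zfp935* belong to clusters of near-identical genes and their counts are uncertain.

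Translation factors had 2 calls of 57, *Eif1a* (5.13 and 17.3 CPM) and *Eef1akmt1* (11.8 and 30.3 CPM), the latter a methyltransferase that modifies an elongation factor and is not one itself. *Eif1a* has copies whose reads it may share. Solute carriers had 2 of 73, *Slc39a1* and the ion cotransporter *Slc12a2* (5.33 and 15.4 CPM). Of 5 immediate early and heat shock genes tested, *Hsph1*, a chaperone, was called, with 63.1 ± 30.2 and 151.4 ± 35.4 CPM, while *Hsp90aa1*, *Dnajb1*, *Hspa8* and *Dusp1* had ratios of 0.91, 1.34, 1.07 and 1.26. The lists of glycolysis, antioxidant, E2 ubiquitin-conjugating, PI3K and Foxo3, fertilization, survival and clustered histone genes had no call among 18, 16, 27, 13, 11, 5 and 4 members tested.

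**Figure D4:**
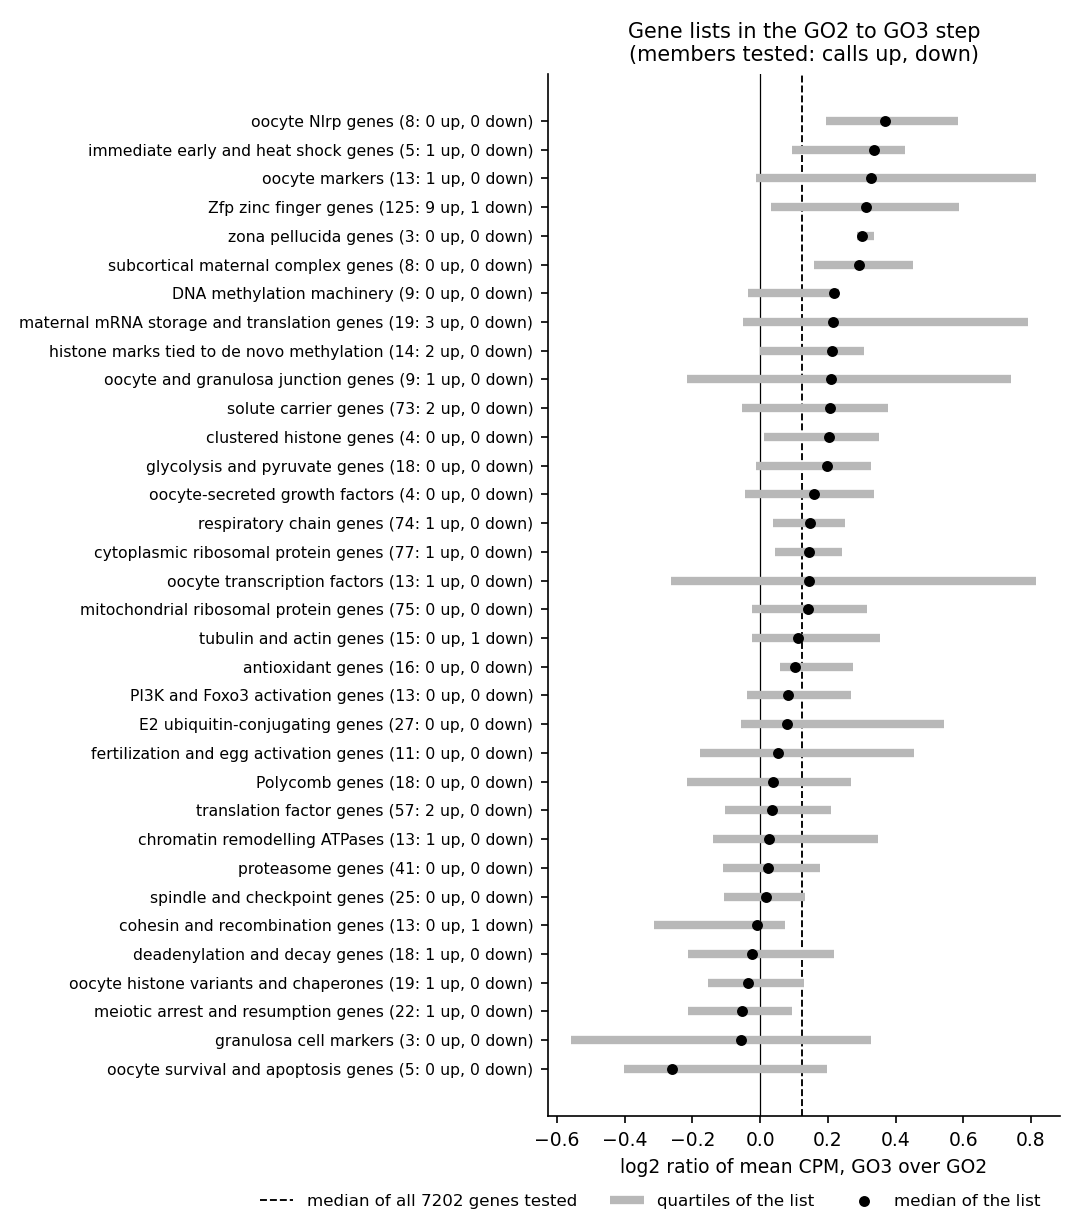
Median log2 ratio of mean CPM, GO3 over GO2 (x axis, points), with quartiles (grey bars) for each of the 34 lists with at least 3 members tested, and in brackets the members tested and those called up (higher in GO3) or down (higher in GO2). The dashed line is the median of all 7202 genes tested, 0.12, and list medians run from -0.26 for survival genes to 0.37 for the oocyte *Nlrp* genes.

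*Malat1*, a nuclear noncoding RNA named after its values were seen, ranged from 16.8 to 391 CPM in GO2 (median 88.5) and from 113.3 to 862 CPM in GO3 (median 429). It was 3.30 times as high in GO3 by means and 2.96 times by sums (2.85 to 3.07). *Ubtf*, an activator of ribosomal RNA genes (16.9 and 59 CPM), *Eloa*, the elongin subunit (25.4 and 117.4 CPM), *Cbx3*, a heterochromatin protein (6.55 and 26 CPM), and *Gsk3b*, a kinase (30.7 and 83.2 CPM), were called higher in GO3 and likewise named after their values were seen. Higher in GO2 were *Brd8*, of a histone acetyltransferase complex (276 ± 199 and 107.01 ± 45.5 CPM), and *Anxa5*, a phospholipid-binding protein (151.2 ± 100.4 and 70.1 ± 59.5 CPM).

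The number of genes detected depended on depth. GO2 cells showed 10353 ± 2132 genes and GO3 cells 11217 ± 1219. Thinned to 90000 UMIs each, they showed 7164 ± 730 and 7705 ± 294. Among cells with at least 500000 UMIs, counted at full depth, 14 GO2 cells showed 11960 ± 694 genes and 34 GO3 cells 11726 ± 782. Depth was not made equal within that class, so this order is not read as one at equal depth. The lowest thinned counts in GO2 were those of the cells that stood apart.

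The neighbouring steps were counted by the same rule for orientation. From GO1 to GO2, 189 of 7088 genes were called (2.67%), 2 of them higher in the later stage (0.0282%) and 187 lower (2.64%). From GO3 to FGO, the fully grown oocyte, 396 of 7411 were called (5.34%), 1.93% higher and 3.41% lower in FGO. The counts depended on the average used. By the mean over cells alone, 306 genes were higher in GO2 than in GO1 (4.16%) and 908 lower (12.3%), where the shares higher and lower were 5.09% and 1.26% from GO2 to GO3 and 3.62% and 5.57% from GO3 to FGO. Consecutive steps share a stage, and cell numbers and depths differ between stages, so these shares were not compared by a test.

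The course of the called genes over the 5 stages is given as a description, because GO2 and GO3 chose them. Over all genes tested the median level was 51.1, 42.5, 41.1, 45.6 and 43.6 CPM from NGO to FGO. The median of the 230 genes higher in GO3 was 35.2 CPM in non-growing oocytes (NGO, from mice 3 to 4 days old), then 13, 7.77, 22.9 and 27.5 CPM from GO1 to FGO. A low GO2 value is what the rule selects. In FGO, 229 of the 230 had a mean above their GO2 mean, beside 4058 of all 7202 genes tested, and 72 one below their GO3 mean, beside 3967 of 7202. Both comparisons use the GO2 or GO3 level by which the genes were chosen, so nothing is read from these counts. The 63 genes higher in GO2 ran from 4.56 CPM in NGO over 22.6, 26.6 and 10.3 CPM to 4.23 CPM in FGO, and 60 of them had an FGO mean below their GO2 mean, beside 3144 of 7202, with the same limit. The means of *Ddx4* were 324, 69.8, 45.8, 115.96 and 169.5 CPM in order of stage, and those of *Tbpl2* 161, 16.8, 7.88, 35.7 and 76.8 CPM. *Tfap2b* ran 0.264, 17.8, 23.9, 4.48 and 0.519 CPM, and *Mei4* 2.66, 102.1, 93.3, 27.5 and 3.53 CPM. *Xaf1* did not follow this course, with 44.7, 205, 152.2, 17.1 and 77.3 CPM.

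**Figure D5:**
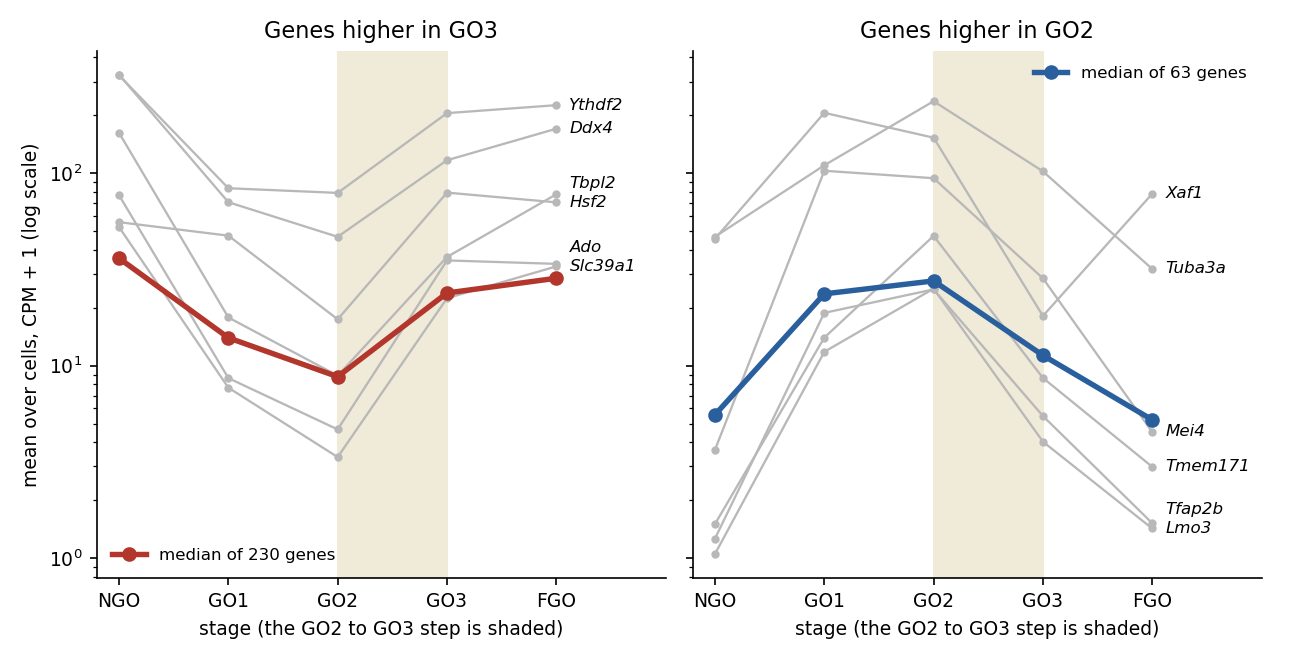
Mean over cells (y axis, CPM + 1, log scale) by stage from NGO to FGO (x axis) for genes higher in GO3 (left) and higher in GO2 (right), with the median of each group in colour and 6 named genes each in grey. The red median falls to 7.77 CPM in GO2 and regains 22.9 CPM in GO3, and the blue median peaks at 26.6 CPM in GO2 and returns to 4.23 CPM in FGO.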

How the data were processed

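Single-cell RNA-seq of oocytes picked by hand was analysed from the table of counts that the authors deposited. For these the authors split reads by cell barcode, aligned the trimmed reads to the mm9 transcriptome using Tophat, and collapsed duplicates by UMI, and the deposited counts are raw UMI numbers. They kept cells with more than 3000 genes and 20000 to 4000000 transcripts, and they also dropped cells in which ERCC spike-ins took a large share. The design text gives 296 cells, the table holds 223, and all 223 met the limits on genes and transcripts. ERCC counts were not used here. No doublet caller was run on cells picked by hand, and no pair of cells had identical counts.

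Here UMIs were scaled to CPM per cell. A gene was tested, that is compared, when each of the 2 averages reached 10 CPM in at least 1 stage, not necessarily the same one. It was called at 2-fold, with 3 UMIs set as the limit of a sum of 0. The stages held 24976634 (GO2) and 49822036 (GO3) UMIs in all, so that 0 UMIs allow up to 0.120 and 0.0602 CPM. Intervals are exact at 95% and cover counting error only. The 12 largest rises and falls were ranked by log2((mean CPM + 1) in GO3 over GO2) among calls held without any 1 cell. Every list member called and up to 4 abundant members of each list could be named, as could the 5 most abundant genes of each stage, *Dnmt3a*, *Dnmt3l* and *Tet3*. Other genes were named after their values were seen, including the defining markers of other cell types. A called list member is not reported here by name. Members and lists were chosen with earlier results of these data known. Promoter windows came from GENCODE vM1 records on NCBIM37, where gene symbols were matched directly or by RefSeq synonyms.

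Alternatives were sums or cell means alone, medians over cells, DESeq2 1.42.0 size factors, edgeR 4.0.16 TMM factors (both for scaling only), totals without the 20 most abundant genes, thinned cells, depth classes, stages without their 10 deepest cells, other limits, and each cell left out in turn. Leaving out GO2 cells 24 and 25 was added after seeing the data, with a median correlation under 0.7 as the mark. The size rule was tested on simulated data that held counting error but no differences among oocytes or libraries, at changes larger than 2-fold. That trial does not show how the rule behaves near its limits in these cells. Tools were R 4.3.3, Python 3.11.15, matplotlib 3.10.9, scipy 1.17.1, pandas 2.3.3 and numpy 2.4.6.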

Additional observations from a re-analysis of the deposited data

How the results depend on the processing

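The 293 calls (230 higher in GO3, 63 higher in GO2) depended on the limits and on depth. Means over cells alone gave 462 calls, 370 of them higher in GO3, and the number higher in GO3 is given in brackets from here on. Cells thinned to 90000 UMIs gave 606 (488), stages without their 10 deepest cells 491 (385) and cells with under 500000 UMIs 822 (678). No filter on low values gave 2219 calls (1428), a limit of 50 CPM 64 (45), 1.5-fold 879 (688) and 3-fold 63 (45). Sums alone, medians over cells, DESeq2 or TMM scaling, totals without the 20 most abundant genes, cells with at least 500000 UMIs and stages without GO2 cells 24 and 25 stayed within 1.5 times of the total, between 259 and 319. With 1 cell left out at a time the total ran from 275 to 343, those higher in GO3 from 211 to 277 and those higher in GO2 from 59 to 72. Calls among list members, 30 in all, became 46 with means alone, 64 in thinned cells, 47 without the deepest cells and 67 in cells with under 500000 UMIs. The difference in genes detected per cell (GO3 minus GO2) was 541.2 genes in cells thinned to 90000 UMIs. It was -233.8 genes in cells with at least 500000 UMIs counted at full depth, where depth was not made equal. The 24 genes with the largest changes kept their call in every scaling and depth setting run. They had been chosen from the same cells for large differences that no single cell decided, so this is a description and no test. Of the 30 called list members, 25 kept their call with DESeq2 or TMM scaling, 26 in thinned cells and 27 without the deepest cells. In cells with at least 500000 UMIs 28 did, and 24 in those with fewer. Of 520 values of the genes of both groups, 310 moved by no more than the counting interval allows to either side while none changed sign. Medians of lists also moved with depth, that of the oocyte markers between 0.13 and 0.52 over 10 settings and that of the storage genes between 0.03 and 0.43. No paired analysis was possible because the cell names carry neither a library nor a replicate shared between the stages. Low genes in shallow cells rest on few UMIs, so ratios there are imprecise.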
